A study of Homo sapiens with 36 samples.

Results

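The 10 genes described here carry cisplatin and copper into cells, move them within cells, pump them out, or bind them: SLC31A1, SLC31A2, LRRC8A, LRRC8D, ATOX1, ATP7A, ATP7B, ABCC1, ABCC2, and GSTP1. They were taken by name from a list and are 10 of the 18078 genes in the deposited tables of 3 RNA-seq experiments. The first experiment used NT2/D1-A4 cells and the second used 2102EP-C1 cells, each a cisplatin-resistant clone (1 clone per line) of a human testicular embryonal carcinoma line. In both, the arms were untreated vehicle control cells (control), 6 h of cisplatin at 0.5 µM (cisplatin), 3 days of GSK-J4 at 1 µM (GSK-J4), and GSK-J4 followed by cisplatin (GSK-J4+cisplatin). GSK-J4 inhibits KDM6A and KDM6B, the demethylases that remove the repressive H3K27me3 mark. In the third, called the knockdown experiment here, 2102EP-C1 cells with an empty pLKO.1 vector were compared with cells expressing hairpins against both demethylases (sh6A+6B, 1 hairpin per gene), with or without the same cisplatin. Cells were harvested 24 h after cisplatin, and 3 libraries were made per arm, 36 in all over 12 arms.

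Cisplatin shares routes with copper. The copper transporter SLC31A1 (CTR1) and volume-regulated anion channels built from LRRC8A and LRRC8D have been linked to its entry, and SLC31A2 (CTR2) is a related copper transporter that resides largely inside cells. ATOX1 hands copper to ATP7A and ATP7B, the copper pumps of the secretory pathway, and ABCC1 and ABCC2 export drugs joined to glutathione. GSTP1 is a glutathione transferase that is abundant in many tumors.

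The 36 libraries held 26.8 to 49.5 M counted reads in the NT2/D1-A4 experiment, 30.3 to 53.6 M reads in the 2102EP-C1 GSK-J4 experiment, and 79.4 to 100.9 M reads in the knockdown experiment. How far depth set the precision of small changes was not tested. As a check of the labels, KDM6A was at 7.15 to 7.17 log2 CPM (CPM, the read count scaled to a fixed library size) in pLKO.1 and 6.09 to 6.20 in sh6A+6B libraries (log2 fold change -1.01, adjusted p = 2.1e-18), and KDM6B was at 4.61 to 4.66 and 3.51 to 3.75 (-1.01, adjusted p = 1.8e-14). Both were also lower in cisplatin-treated knockdown cells (-0.96 for KDM6A and -1.24 for KDM6B). All 8 embryonal carcinoma markers on the list used (POU5F1, NANOG, SOX2, LIN28A, SALL4, TDGF1, DNMT3B, and PRDM14) were measured in every library, with summed levels of 4280 to 9060 CPM. Over the 3 experiments, 1 or 2 of 5 yolk sac or endoderm markers and 1 of 4 immune markers were measured, with sums of at most 4.91 and 2.22 CPM, the 3 of 5 fibroblast or stroma markers measured summed to 27 to 114 CPM, and the 3 of 5 trophoblast markers measured summed to 114 to 173 CPM. Defining markers such as PTPRC, CD3E, DCN, LUM, SOX17, and FOXA2 had no values in any of the 3 experiments, so they were not analysed here. The summed embryonal carcinoma markers were lower after pretreatment in every experiment (6020 to 6170 CPM in control and 4820 to 4960 CPM in GSK-J4 libraries of NT2/D1-A4, 8870 to 9060 and 7870 to 7950 CPM in 2102EP-C1, and 8160 to 8190 in pLKO.1 and 7470 to 7510 CPM in sh6A+6B). They were also lower with cisplatin alone (5580 to 5810 CPM in NT2/D1-A4, 8370 to 8510 CPM in 2102EP-C1, and 7650 to 7750 CPM in pLKO.1 cells) and lowest with both (4280 to 4780, 7080 to 7380, and 6900 to 6960 CPM). The yolk sac or endoderm sum was 2.38 to 3.02 CPM in control and 4.24 to 4.91 CPM in GSK-J4 libraries of NT2/D1-A4, and 0.966 to 1.42 and 1.98 to 2.29 CPM in 2102EP-C1. The trophoblast sum was 132 to 136 CPM in control and 154 to 173 CPM in GSK-J4+cisplatin libraries of 2102EP-C1. In NT2/D1-A4 it went the other way, with 138 to 145 CPM in control, 124 to 129 CPM in GSK-J4, and 127 to 131 CPM in GSK-J4+cisplatin libraries. It was also lower with knockdown (126 to 128 CPM in pLKO.1 and 114 to 115 CPM in sh6A+6B libraries). The fibroblast or stroma sum was 31.9 to 35.2 CPM in control and 41 to 44.2 CPM in cisplatin libraries of NT2/D1-A4, and 88.3 to 91.3 and 110 to 113 CPM in 2102EP-C1. The part of these markers in the results below was not tested. In bulk RNA, fewer cells that express a gene and less RNA per cell cannot be told apart.

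Some libraries stood apart from their replicates. The variance between a pair of replicates was 1.68 to 26.79 times counting noise over all arms. NT2/D1-A4 GSK-J4+cisplatin replicate 3 gave 26.79 and 10.28 against the other libraries of its arm, which gave 7.51 between them, and 2102EP-C1 GSK-J4 replicate 3 gave 8.13 and 10.57, against 1.83 between the others. In 2102EP-C1, GSK-J4+cisplatin replicate 1 gave 7.22 and 8.98, against 3.33 between the others. NT2/D1-A4 GSK-J4 replicate 1 gave 9.4 and 6.95, against 2.99. Results that did not pass the test without NT2/D1-A4 GSK-J4+cisplatin replicate 3 or 2102EP-C1 GSK-J4 replicate 3 are given with the value without it. Those lost without 2102EP-C1 GSK-J4+cisplatin replicate 1 are stated as lost.

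Differences are given as log2 fold changes with their standard errors from limma-trend fits to the deposited log2 CPM values. A gene passed the test at an adjusted p under 0.05 (Benjamini-Hochberg over all genes of a table), and it was called changed when its fold change was also over 1.3, the limit the study used. SLC31A2 was measured in the knockdown table only and was not analysed here in the 2 GSK-J4 tables, which held the other 9 genes. The exons of SLC31A2 share 1582 of 2473 bases with FKBP15 on the opposite strand, those of ATOX1 share 130 bases with G3BP1 on the opposite strand, and those of LRRC8D share 329 bases with another gene model on the same strand. Those of ATP7A share 689 bases with PGAM4 on the opposite strand and 97 bases with PGK1 on the same strand. The strand setting of the read counting is not given in the sources used here. It therefore cannot be told how reads over the bases shared with FKBP15 were assigned, and the counts of SLC31A2 may be affected.

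In untreated cells the members spanned a wide range of levels per kilobase of their canonical transcript (log2 CPM per kb, mean ± SD, n = 3). GSTP1 was by far the most abundant, at 9.17 ± 0.04 in NT2/D1-A4 control, 8.62 ± 0.04 in 2102EP-C1 control, and 8.50 ± 0.01 in pLKO.1 cells. SLC31A1 (4.74 ± 0.03, 4.86 ± 0.01, and 4.83 ± 0.00 in the same arms) and ATOX1 (4.27 ± 0.03, 4.97 ± 0.06, and 4.82 ± 0.04) came next, and in pLKO.1 cells they differed from each other by less than their spread. ABCC1 (3.73 ± 0.02, 3.92 ± 0.03, and 3.97 ± 0.03) and LRRC8D (3.68 ± 0.05, 3.87 ± 0.02, and 3.91 ± 0.02) lay close together, and in NT2/D1-A4 their difference was no larger than the spread. ATP7A had 1.58 ± 0.01, 1.84 ± 0.06, and 2.18 ± 0.04, SLC31A2 had 1.01 ± 0.12 in pLKO.1 cells, and ATP7B had -0.45 ± 0.15, -0.54 ± 0.08, and -0.14 ± 0.12. LRRC8A, the obligate subunit of the anion channel, had 3.98 ± 0.03 in NT2/D1-A4 but 3.05 ± 0.03 and 2.99 ± 0.04 in the 2102EP-C1 arms, and ABCC2 had 0.79 ± 0.08 against -0.57 ± 0.08 and -0.69 ± 0.01. The tables were normalized separately, and the line and the experiment cannot be told apart, so these levels are set side by side with no test between lines. The order depends on the length used: over all annotated exons, which for ATOX1 run to 5239 bases against 471 in the canonical transcript, ATOX1 in NT2/D1-A4 control stood at 0.80 in place of 4.27.

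**Figure D1:**
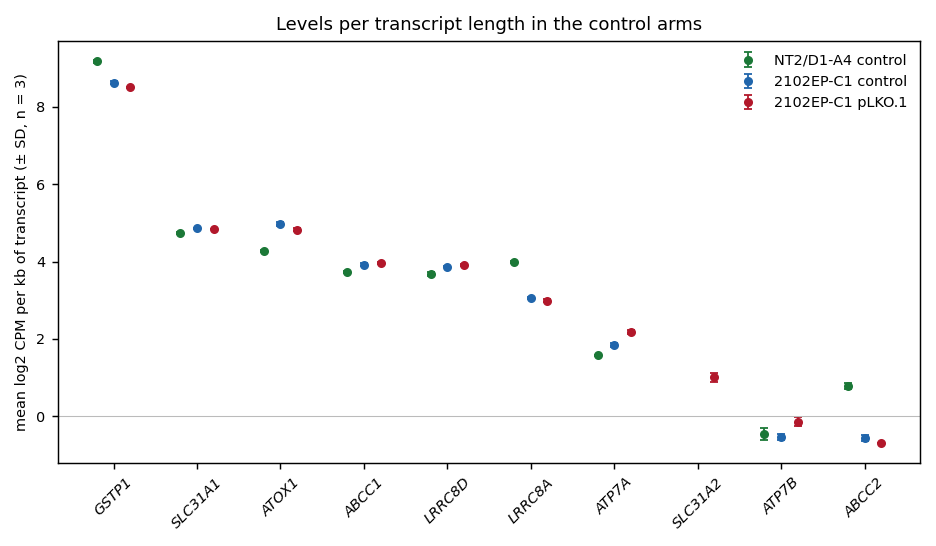
Mean log2 CPM per kilobase of canonical transcript in the 3 control arms (points, with SD over 3 libraries as bars), with genes ordered by pLKO.1 level on the horizontal axis. GSTP1 stands alone at 8.50 to 9.17, and LRRC8A and ABCC2 are the members with the widest gaps between the NT2/D1-A4 and 2102EP-C1 arms.

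The promoters of the members whose transcripts moved most clearly (SLC31A1, LRRC8D, and ATOX1) and of GSTP1 are shown because copper and oxidant responses act through short motifs near the start of some of these genes. They are the RefSeq windows of GRCh38.p14 from 250 bases before to 50 after the annotated start, read 5′ to 3′ on the strand of the gene. Capitals mark matches, on either strand, to the letters TGACNNNGC (core of the antioxidant response element) or TGCNCNC, and matches can overlap. TGCNCNC is a loose form of the metal response element core, with any base at each N, so a match need not hold that core.
SLC31A1, chr9:113221294-113221593, plus strand: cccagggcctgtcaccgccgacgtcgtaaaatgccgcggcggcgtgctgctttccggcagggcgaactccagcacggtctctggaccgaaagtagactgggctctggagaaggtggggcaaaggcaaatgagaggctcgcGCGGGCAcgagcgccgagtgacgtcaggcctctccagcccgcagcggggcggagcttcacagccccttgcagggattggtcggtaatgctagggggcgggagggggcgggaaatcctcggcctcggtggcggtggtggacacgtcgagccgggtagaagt
LRRC8D, first of 2 windows, chr1:89820782-89821081, plus strand: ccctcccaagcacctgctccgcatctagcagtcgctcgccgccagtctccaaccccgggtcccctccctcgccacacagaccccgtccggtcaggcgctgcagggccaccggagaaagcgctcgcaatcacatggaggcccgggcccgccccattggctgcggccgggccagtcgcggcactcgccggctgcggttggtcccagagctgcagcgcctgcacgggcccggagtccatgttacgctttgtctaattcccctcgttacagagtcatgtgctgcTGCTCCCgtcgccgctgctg
ATOX1, chr5:151758582-151758881, minus strand: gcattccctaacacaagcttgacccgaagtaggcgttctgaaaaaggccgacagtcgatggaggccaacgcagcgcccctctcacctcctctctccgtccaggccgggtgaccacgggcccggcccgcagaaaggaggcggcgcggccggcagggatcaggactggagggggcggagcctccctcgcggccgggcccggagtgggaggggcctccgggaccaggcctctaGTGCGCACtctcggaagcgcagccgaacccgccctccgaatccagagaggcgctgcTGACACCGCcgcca
GSTP1, chr11:67583562-67583861, plus strand: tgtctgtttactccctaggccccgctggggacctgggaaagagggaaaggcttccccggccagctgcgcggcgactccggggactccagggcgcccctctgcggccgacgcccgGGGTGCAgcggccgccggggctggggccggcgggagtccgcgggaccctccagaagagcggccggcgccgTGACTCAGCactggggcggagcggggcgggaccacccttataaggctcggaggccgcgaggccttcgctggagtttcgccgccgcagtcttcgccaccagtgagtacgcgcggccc
The antioxidant core was found in 2 of the 12 windows of the members (ATOX1, 36 bases after the start, and GSTP1, at -66) and in 13.3% of the 35116 promoter windows of all genes. The loose metal pattern was found in 10 of 12 and in 55.9%, so it is common everywhere. The amino acid response element TGATGNAA was found in 0 of 12 and in 3.62%. The 12 windows belong to 8 of the 10 genes, all but ABCC1 and SLC31A2. GC content was 67.3% in SLC31A1, 69% in LRRC8D, 70% in ATOX1, and 74% in GSTP1, against 45% with a single CG pair in ABCC2. A match describes letters only, and no binding was measured.

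**Figure D2:**
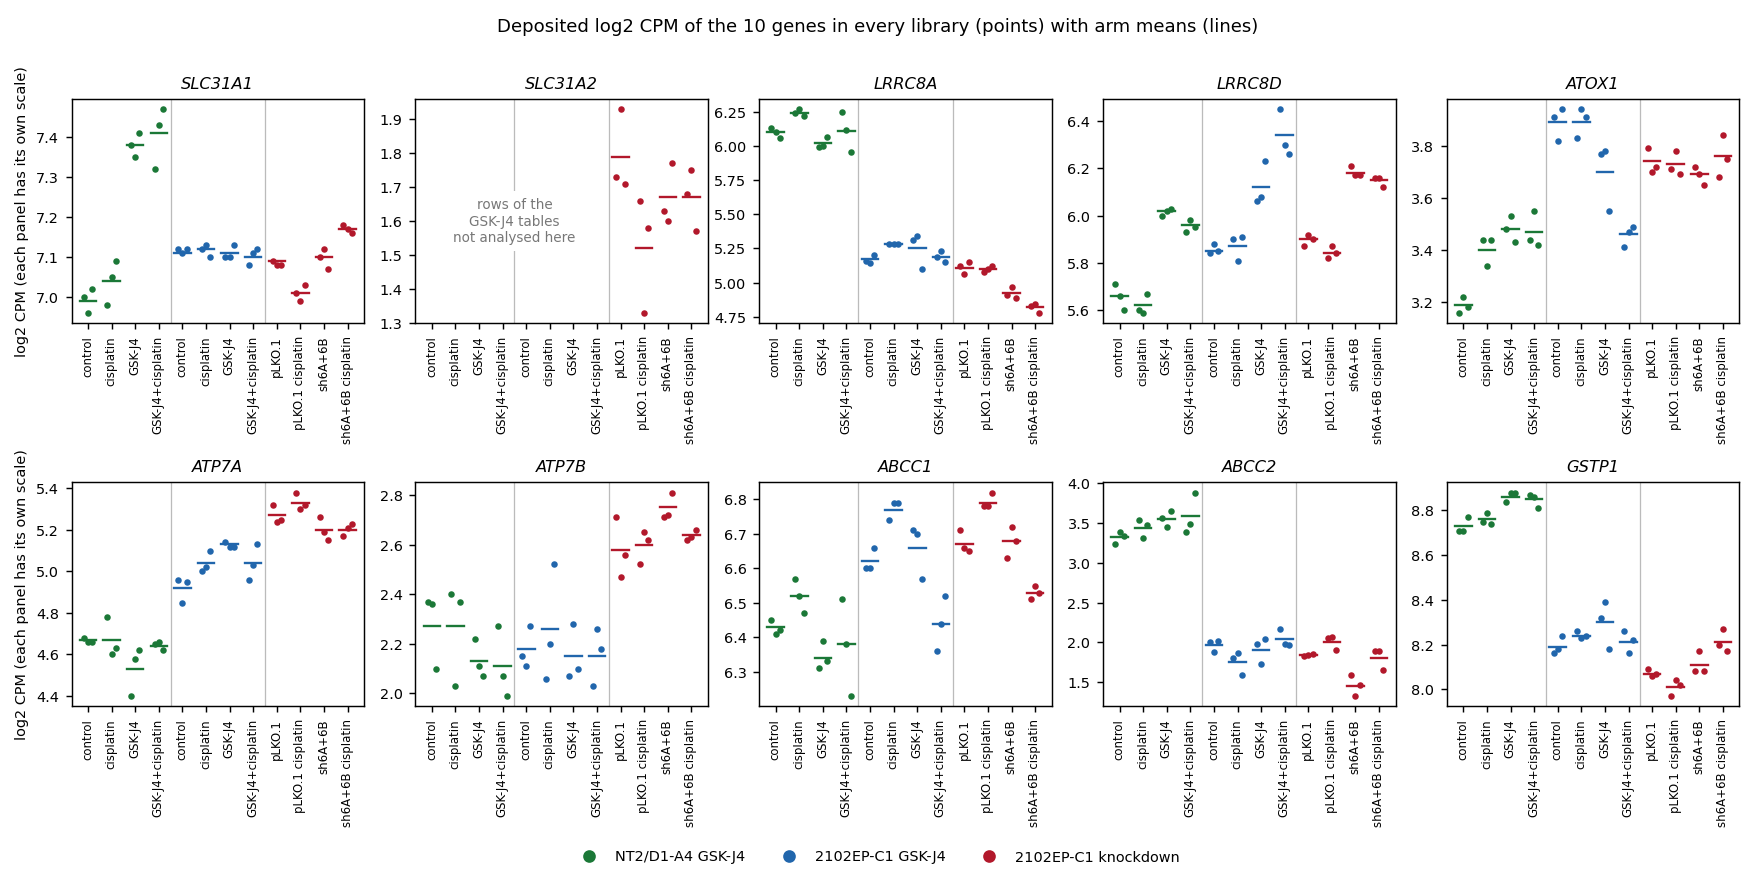
Deposited log2 CPM (vertical axes, a scale of its own in each panel) of the 10 genes in each library (points) of the 12 arms (horizontal axes), with arm means as lines and colors for the 3 experiments. SLC31A1 stands at 7.32 or more in the 6 NT2/D1-A4 libraries with GSK-J4 and at 7.09 or less in the 6 without, while LRRC8D is higher with GSK-J4 or sh6A+6B in all 3 experiments.

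SLC31A1 (GeneID 1317, chr9:113221544-113264492), the main copper importer, rose with GSK-J4 in NT2/D1-A4 and not measurably in 2102EP-C1. In NT2/D1-A4 its libraries read 7.00, 6.96, and 7.02 log2 CPM in control and 7.38, 7.35, and 7.41 after GSK-J4, and these groups did not overlap. GSK-J4 alone raised it by 0.39 ± 0.041 (SE; adjusted p = 3.4e-07), and it was called. With cisplatin in both arms the values were 6.98, 7.05, and 7.09 without GSK-J4 and 7.32, 7.43, and 7.47 with it, a rise of 0.37 ± 0.041 (adjusted p = 6.6e-07) that passed the test but stayed under the fold limit. These comparisons use different libraries, so the rise was seen in separate sets of cells. In 2102EP-C1 cells SLC31A1 was flat, with all 12 libraries between 7.08 and 7.13 and a GSK-J4 effect of -0.01 (95% interval -0.07 to 0.05, adjusted p = 0.86). The difference between the lines was -0.40 ± 0.050 for GSK-J4 alone (2102EP-C1 effect minus NT2/D1-A4 effect, adjusted p = 5.9e-07) and -0.43 ± 0.050 for GSK-J4+cisplatin against control (adjusted p = 9.6e-08), and both were called. The call for GSK-J4 alone in NT2/D1-A4 was close to the limit. The effect was 0.37 without control replicate 2 and 0.37 without GSK-J4 replicate 3, and neither was called, while the adjusted p did not exceed 8.9e-06 in any alternative.

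In the knockdown experiment SLC31A1 moved by small amounts, and with cisplatin it moved in opposite directions in pLKO.1 and sh6A+6B cells. It read 7.09, 7.08, and 7.08 in pLKO.1 and 7.01, 6.99, and 7.03 in pLKO.1 cisplatin libraries, a fall of 0.08 (SE 0.019, adjusted p = 0.0022). In sh6A+6B cells it read 7.10, 7.12, and 7.07 without cisplatin and 7.18, 7.17, and 7.16 with it, a rise of 0.08 ± 0.019 (adjusted p = 0.0018). The cisplatin effect was therefore higher by 0.15 ± 0.026 in knockdown cells (interaction, adjusted p = 5.6e-05). Knockdown alone left SLC31A1 at a difference of 0.01 (95% interval -0.03 to 0.05), and within cisplatin-treated cells the knockdown libraries were higher by 0.16 ± 0.019 (adjusted p = 5.8e-08).

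SLC31A2 was low in the knockdown table, at 235 to 333 reads per library. Its values were 1.73, 1.93, and 1.71 log2 CPM in pLKO.1 and 1.66, 1.33, and 1.58 in pLKO.1 cisplatin libraries, a fall of 0.27 (SE 0.087, adjusted p = 0.018). The adjusted p was 0.12 without pLKO.1 replicate 2 and 0.15 without pLKO.1 cisplatin replicate 2. In sh6A+6B cells the cisplatin effect was 0.00 (95% interval -0.18 to 0.18), and the interaction (0.27 ± 0.12, adjusted p = 0.092) did not pass the test.

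LRRC8D (GeneID 55144, chr1:89821014-89936611), the channel subunit that sets the preference for platinum drugs and organic solutes, was higher with pretreatment in all 3 experiments. In NT2/D1-A4 it read 5.71, 5.66, and 5.60 in control and 6.00, 6.02, and 6.03 after GSK-J4 (0.36 ± 0.040, adjusted p = 6.0e-07). In 2102EP-C1 it read 5.84, 5.88, and 5.85 in control and 6.06, 6.08, and 6.23 after GSK-J4 (0.27 ± 0.048, adjusted p = 8.4e-05). In the knockdown experiment it read 5.87, 5.92, and 5.90 in pLKO.1 and 6.21, 6.17, and 6.17 in sh6A+6B libraries (0.28 ± 0.023, adjusted p = 2.6e-10). In none of these did the groups overlap, and all 3 rises passed the test at fold changes under the limit of 1.3.

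With cisplatin in both arms, pretreatment raised LRRC8D by 0.34 ± 0.040 in NT2/D1-A4 (adjusted p = 1.5e-06), by 0.46 ± 0.048 in 2102EP-C1 (adjusted p = 1.0e-08), and by 0.30 ± 0.023 in knockdown cells (adjusted p = 4.2e-11). The 2102EP-C1 value was called. Its libraries read 5.90, 5.81, and 5.91 with cisplatin alone and 6.45, 6.30, and 6.26 with GSK-J4+cisplatin, the highest LRRC8D values of that table. There, cisplatin after GSK-J4 added a rise of 0.22 ± 0.048 (adjusted p = 0.0029), whereas cisplatin alone gave 0.02 (95% interval -0.08 to 0.12), but the difference between these effects (0.20 ± 0.067, adjusted p = 0.12) did not pass the test. The rise with GSK-J4 alone did not differ between the lines beyond its error (-0.09, 95% interval -0.23 to 0.04, adjusted p = 0.30), and GSK-J4+cisplatin against control was higher in 2102EP-C1 by 0.18 ± 0.065 (adjusted p = 0.028). That difference lost the test when any of 4 libraries was left out (NT2/D1-A4 control replicate 1, 2102EP-C1 control replicates 1 and 3, and 2102EP-C1 GSK-J4+cisplatin replicate 1, with adjusted p of 0.0541 to 0.126).

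LRRC8A (GeneID 56262, chr9:128882133-128918039), without which the channel does not form, did not follow LRRC8D. Knockdown lowered it: pLKO.1 libraries read 5.12, 5.06, and 5.15 and sh6A+6B libraries 4.91, 4.97, and 4.89, a fall of 0.19 (SE 0.030, adjusted p = 1.4e-05), and the groups did not overlap. Within cisplatin-treated cells the values were 5.08, 5.10, and 5.12 against 4.83, 4.84, and 4.78, a fall of 0.28 (SE 0.030, adjusted p = 1.6e-08). GSK-J4 alone gave -0.08 ± 0.053 in NT2/D1-A4 (adjusted p = 0.23) and 0.08 ± 0.051 in 2102EP-C1 (adjusted p = 0.22), neither past the test, and the 3 control libraries of 2102EP-C1 (5.16, 5.14, and 5.20) overlapped those after GSK-J4 (5.31, 5.34, and 5.10). In sh6A+6B cells cisplatin changed LRRC8A by a further -0.11 ± 0.030 (adjusted p = 0.0059).

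ATOX1 (GeneID 475, chr5:151742316-151772532), the copper chaperone that also binds cisplatin, moved in opposite directions in the 2 lines with GSK-J4 alone. In NT2/D1-A4 it read 3.16, 3.22, and 3.18 in control and 3.48, 3.53, and 3.43 after GSK-J4, a rise of 0.29 ± 0.065 (adjusted p = 0.0012). In 2102EP-C1 it read 3.91, 3.82, and 3.94 in control and 3.77, 3.78, and 3.55 after GSK-J4, a fall of 0.19 (SE 0.068, adjusted p = 0.035). It read 3.41, 3.47, and 3.49 in GSK-J4+cisplatin libraries of 2102EP-C1, a fall of 0.43 (SE 0.068, adjusted p = 7.2e-06) against control that was called. Within cisplatin-treated 2102EP-C1 cells the GSK-J4 effect on ATOX1 was also -0.43 ± 0.068 (adjusted p = 7.5e-06), again called, and these comparisons share the GSK-J4+cisplatin libraries. None of these groups overlapped. With cisplatin in both arms of NT2/D1-A4, however, the GSK-J4 difference in ATOX1 was only 0.07. There the groups overlapped, and the difference did not pass the test. Within GSK-J4-treated 2102EP-C1 cells the cisplatin effect on ATOX1 was -0.24 (adjusted p = 0.016), and it did not hold without GSK-J4 replicates 1 or 2 or GSK-J4+cisplatin replicate 1, or with only the groups compared fitted (adjusted p of 0.0641 to 0.0941).

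The difference between the lines in the ATOX1 response was -0.48 ± 0.094 for GSK-J4 alone (adjusted p = 3.0e-04) and -0.71 ± 0.094 for GSK-J4+cisplatin against control (adjusted p = 6.9e-07), and both were called. The fall with GSK-J4 alone in 2102EP-C1 did not hold without control replicate 1, control replicate 3, or GSK-J4 replicate 3 (adjusted p of 0.0991, 0.128, and 0.196, with a log2 fold change of -0.11 in the last), whereas the difference between the lines passed the test in all 29 alternatives (-0.40 to -0.52). Some of the 29 left out a library of an arm outside that comparison, which cannot change the difference. Cisplatin alone raised ATOX1 in NT2/D1-A4 (3.44, 3.34, and 3.44, 0.22 ± 0.065, adjusted p = 0.043), a result that any of 8 left-out libraries took over 0.05 (up to 0.13), among them each control and each cisplatin library. In the knockdown experiment all 12 libraries lay between 3.65 and 3.84, and ATOX1 passed no test (knockdown alone -0.05, 95% interval -0.14 to 0.04).

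**Figure D3:**
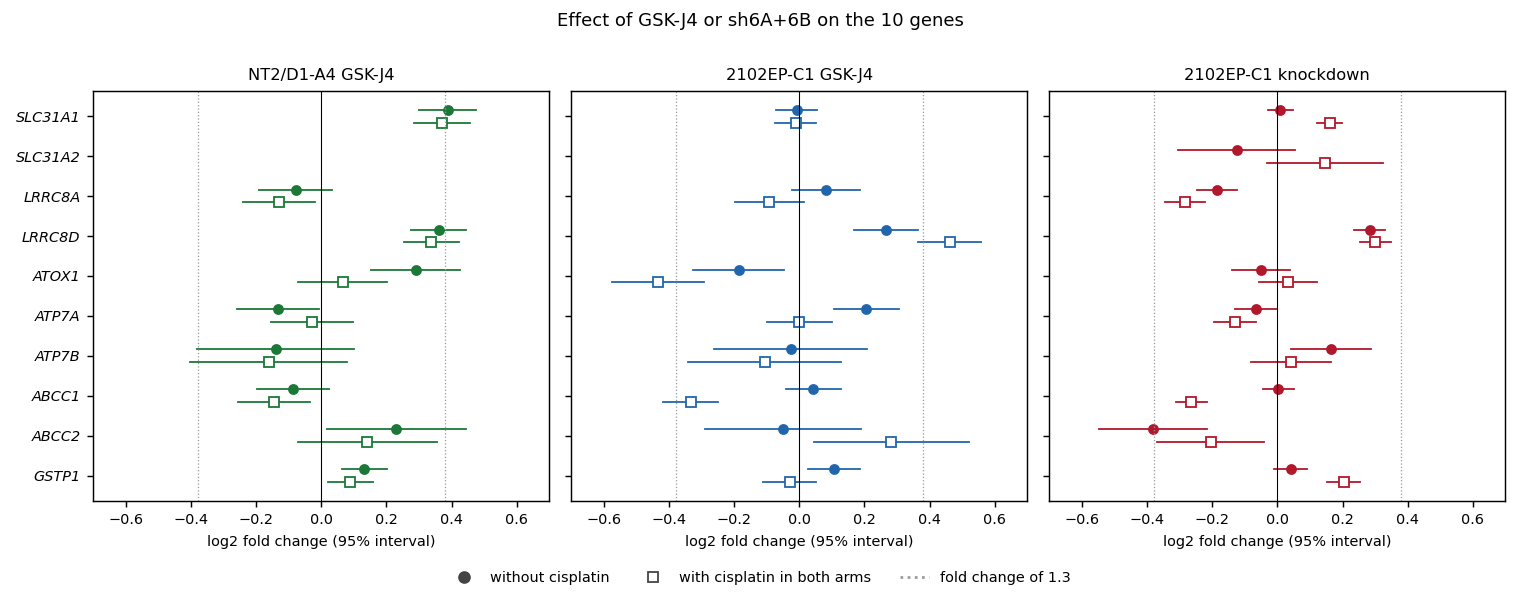
Log2 fold change (horizontal axis, point with 95% interval) of each gene with GSK-J4 or sh6A+6B, without cisplatin (filled circles) and with cisplatin in both arms (open squares), for the 3 experiments, with dotted lines at a fold change of 1.3. LRRC8D lies right of 0 in every panel (0.27 to 0.46), SLC31A1 stands at 0.39 without cisplatin in NT2/D1-A4 against -0.01 and 0.01 in the 2102EP-C1 experiments, and ATOX1 lies on opposite sides of 0 in the lines.

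The copper pumps changed little. ATP7A (GeneID 538, chrX:77910690-78050395) read 4.92 ± 0.06 log2 CPM (SD, n = 3) in 2102EP-C1 control and 5.13 ± 0.01 after GSK-J4, a rise of 0.21 ± 0.049 (SE, adjusted p = 0.0017). In NT2/D1-A4 the GSK-J4 effect was -0.13 ± 0.060 (adjusted p = 0.073), and the difference between the lines was 0.34 ± 0.078 (adjusted p = 0.0016), under the fold limit. The knockdown effect within cisplatin-treated cells was -0.13 ± 0.031 (adjusted p = 8.0e-04). ATP7B (GeneID 540, chr13:51930436-52012125) had arm means of 2.11 to 2.75 log2 CPM, and its only change past the test was 0.16 ± 0.059 with knockdown alone (adjusted p = 0.023), which was lost without pLKO.1 replicates 2 or 3 or sh6A+6B replicate 3 (0.063 to 0.155).

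ABCC1 (GeneID 4363, chr16:15949138-16143257), the glutathione conjugate pump MRP1, moved in opposite directions with cisplatin before and after pretreatment, in both experiments with 2102EP-C1 cells. Without pretreatment, cisplatin raised it: control libraries of 2102EP-C1 read 6.60, 6.60, and 6.66 and cisplatin libraries 6.74, 6.79, and 6.79 (0.16 ± 0.041, adjusted p = 0.027), and pLKO.1 libraries read 6.71, 6.66, and 6.65 against 6.78, 6.78, and 6.82 with cisplatin (0.12 ± 0.023, adjusted p = 2.8e-04). After pretreatment, cisplatin lowered it: GSK-J4 libraries read 6.71, 6.70, and 6.57 and GSK-J4+cisplatin libraries 6.36, 6.44, and 6.52 (-0.22 ± 0.041, adjusted p = 6.6e-04), and sh6A+6B libraries read 6.63, 6.72, and 6.68 against 6.51, 6.55, and 6.53 with cisplatin (-0.15 ± 0.023, adjusted p = 1.1e-05). In all 4 comparisons the groups did not overlap. No library is shared between the experiments.

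The test of the difference itself gave an interaction of -0.38 ± 0.058 in the GSK-J4 experiment (adjusted p = 6.0e-04) and -0.27 ± 0.033 in the knockdown experiment (adjusted p = 5.5e-07) for ABCC1. Both passed the test, and the first lay just under the fold limit. It was called without 2102EP-C1 control replicate 3, cisplatin replicate 1, GSK-J4 replicate 3, or GSK-J4+cisplatin replicate 3, and ranged from -0.34 to -0.42 over all alternatives. The rise with cisplatin alone in the GSK-J4 experiment was less secure, with an adjusted p of 0.0508 to 0.137 when any of 5 control or cisplatin libraries was left out (all but control replicate 3). Pretreatment alone left ABCC1 at 0.04 (95% interval -0.04 to 0.13) with GSK-J4 and 0.00 (95% interval -0.04 to 0.05) with knockdown. Within cisplatin-treated cells the effect was -0.33 with GSK-J4 and -0.26 with knockdown (adjusted p = 1.9e-07 and 5.9e-10). In NT2/D1-A4 the interaction was -0.06 (95% interval -0.22 to 0.10, adjusted p = 0.90), and the only change past the test was -0.15 ± 0.053 with GSK-J4 within cisplatin-treated cells (adjusted p = 0.029), which was lost without cisplatin replicates 1 or 2 or GSK-J4+cisplatin replicates 2 or 3 (0.0627 to 0.167, with an effect of -0.07 without the last). Whether the interaction differs between the lines was not tested.

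**Figure D4:**
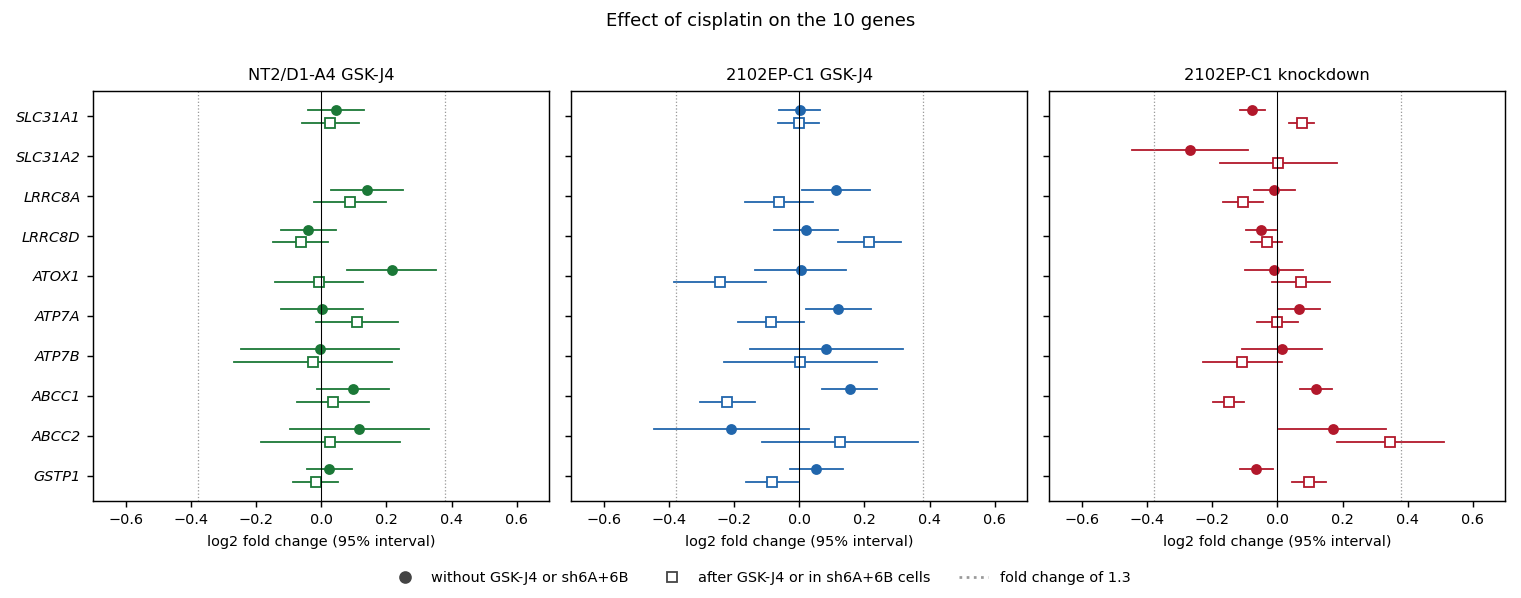
Log2 fold change (horizontal axis, point with 95% interval) of each gene with cisplatin, without pretreatment (filled circles) and after GSK-J4 or in sh6A+6B cells (open squares), with dotted lines at a fold change of 1.3. ABCC1 lies right of 0 without and left of 0 with pretreatment in both 2102EP-C1 experiments (0.16 and -0.22, 0.12 and -0.15), and SLC31A1 and GSTP1 show the opposite order in the knockdown panel.

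ABCC2 (GeneID 1244, chr10:99782640-99852594), the related pump MRP2, fell with knockdown. Its libraries read 1.83, 1.84, and 1.85 in pLKO.1 and 1.59, 1.33, and 1.47 in sh6A+6B (198 to 344 reads), a fall of 0.38 (SE 0.080, adjusted p = 3.0e-04), which was called. The fall lay at the fold limit: it was -0.38 without pLKO.1 replicate 3 and -0.32 without sh6A+6B replicate 2, and neither was called, nor was it with scaling to library size only. Cisplatin in sh6A+6B cells raised ABCC2 again to 1.89, 1.89, and 1.65 (0.35 ± 0.080, adjusted p = 9.8e-04), a change called without sh6A+6B replicate 1 or sh6A+6B cisplatin replicate 3, and against pLKO.1 the combination gave -0.03 (95% interval -0.20 to 0.13). The interaction (0.18 ± 0.11, adjusted p = 0.25) did not pass the test. The rise of 0.26 with GSK-J4+cisplatin against control in NT2/D1-A4 (adjusted p = 0.040) was lost without control replicates 1 or 3 or GSK-J4+cisplatin replicate 3 (0.0693 to 0.29, with a difference of 0.11 without the last). With GSK-J4 alone ABCC2 gave 0.23 ± 0.10 in NT2/D1-A4 (adjusted p = 0.071) and -0.05 ± 0.12 in 2102EP-C1 (adjusted p = 0.77). Values past the test in cisplatin-treated cells were lost when single libraries were left out: 0.28 in 2102EP-C1 with GSK-J4 (adjusted p = 0.045, up to 0.217 without 1 of 7 libraries, which include each of the GSK-J4+cisplatin libraries) and -0.20 with knockdown (adjusted p = 0.030, up to 0.201 without pLKO.1 cisplatin replicates 1 or 2 or sh6A+6B cisplatin replicate 3).

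GSTP1 (GeneID 2950, chr11:67583742-67586656), which joins glutathione to electrophiles, shifted by small amounts. In NT2/D1-A4 it was 8.73 ± 0.04 log2 CPM (SD, n = 3) in control and 8.86 ± 0.03 after GSK-J4 (0.13 ± 0.033 SE, adjusted p = 0.0028). In 2102EP-C1 it was 8.19 ± 0.04 and 8.30 ± 0.11 (0.11 ± 0.039, adjusted p = 0.036), a rise that was lost without control replicates 1 or 2 or GSK-J4 replicates 1 or 2 (0.103 to 0.243). Knockdown alone gave 0.04 (95% interval -0.01 to 0.09). The cisplatin effect on GSTP1 in pLKO.1 cells was -0.06 ± 0.025 (adjusted p = 0.044), lost when any pLKO.1 library or pLKO.1 cisplatin replicates 1 or 3 were left out (up to 0.222), and in sh6A+6B cells it was 0.10 ± 0.025 (adjusted p = 0.0025). The interaction was 0.16 ± 0.035 (adjusted p = 6.9e-04), and within cisplatin-treated cells knockdown libraries were higher by 0.20 ± 0.025 (adjusted p = 1.5e-07).

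Counts of the members are read against the share of all genes that passed the same rule. With GSK-J4 alone in NT2/D1-A4, 1 of 9 was called (SLC31A1), against 20.3% of all genes, and 4 of 9 passed the test, against 48.3%. In 2102EP-C1, 0 of 9 were called, against 10.9%, and 4 of 9 passed the test, against 35.2%. With knockdown alone, 1 of 10 was called (ABCC2), against 12.1%, and 4 of 10 passed the test, against 52.8%. The median log2 fold change of the members was 0.13, 0.04, and -0.02, beside medians over all genes of 0.01, -0.00, and -0.00.

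For the combination against untreated cells, 1 of 9 members was called in NT2/D1-A4 (SLC31A1, 0.42, against 25.4% of all genes) and 5 of 9 passed the test (against 54.0%). In 2102EP-C1, 2 of 9 were called (LRRC8D, 0.48, and ATOX1, -0.43, against 22.6%), and 4 of 9 passed the test (against 53.0%). In the knockdown experiment 0 of 10 were called (against 16.0%), and 5 of 10 passed the test (against 62.6%). These combinations share their untreated libraries with the comparisons of each agent alone.

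With pretreatment within cisplatin-treated cells, 0 of 9 members were called in NT2/D1-A4 (against 20.7%) with 4 past the test (48.4%), 2 of 9 in 2102EP-C1 (LRRC8D and ATOX1, against 19.3%) with 4 past the test (49.4%), and 0 of 10 in the knockdown experiment (against 15.2%) with 7 past the test (61.6%). Those 7 were SLC31A1, LRRC8D, and GSTP1, which rose, and ATP7A, ABCC1, ABCC2, and LRRC8A, which fell.

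Cisplatin alone called none of the members: 0 of 9 in NT2/D1-A4 (against 2.45% of all genes), 0 of 9 in 2102EP-C1 (against 1.07%), and 0 of 10 in pLKO.1 cells (against 3.00%). The test was passed by 1 (ATOX1, against 9.43%), 1 (ABCC1, against 4.08%), and 4 (SLC31A1, SLC31A2, ABCC1, and GSTP1, against 36.1%). Cisplatin within pretreated cells called none either, against 0.377%, 2.22%, and 3.52% of all genes, and 0 of 9, 3 of 9 (ATOX1, ABCC1, and LRRC8D), and 5 of 10 (SLC31A1, ABCC1, ABCC2, LRRC8A, and GSTP1) passed the test, against 1.26%, 15.7%, and 44.8%. In the interactions 0 members were called, against 0.0426%, 0.857%, and 3.77%, and 0 of 9, 1 of 9 (ABCC1), and 3 of 10 (SLC31A1, ABCC1, and GSTP1) passed the test, against 0.0426%, 2.38%, and 35.1%. Several of these shares of all genes rest on single libraries: leaving out 1 library moved the interaction from 7 genes called to 1 to 11 in NT2/D1-A4 and from 146 to 59 to 447 in 2102EP-C1, and cisplatin within pretreated cells from 62 to 20 to 107 and from 379 to 164 to 725. limma-voom on recovered reads also called 0 members in each comparison with a count of 0. At an unadjusted p under 0.05, the members numbered 2, 3, and 7 for cisplatin alone, beside 4051, 2852, and 7302 of all 16431, 17035, and 16459 genes. For cisplatin within pretreated cells they numbered 0, 4, and 5, beside 2403, 4997, and 8399 genes. For the interactions they numbered 1, 6, and 5, beside 1174, 2999, and 7088 genes. They numbered 4 for GSK-J4 alone in 2102EP-C1, beside 7527 genes, and 6 for the combination with knockdown, beside 10833. For pretreatment within cisplatin-treated cells they numbered 5 in NT2/D1-A4 and 7 in the knockdown experiment, beside 8899 and 10723 genes.

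Between the lines, 2 of 9 members differed in their response to GSK-J4 alone past both limits (SLC31A1 and ATOX1, against 10.5% of the 15663 genes measured in both), and 3 passed the test (with ATP7A, against 26.5%). For GSK-J4+cisplatin against control 2 differed past both limits (the same SLC31A1 and ATOX1, against 15.4%), and 3 passed the test (with LRRC8D, against 35.1%). For cisplatin alone 0 did, by either rule and by limma-voom (against 0.128% and 0.217%). At an unadjusted p under 0.05 there were 2, beside 1449 of the 15663 genes.

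**Figure D5:**
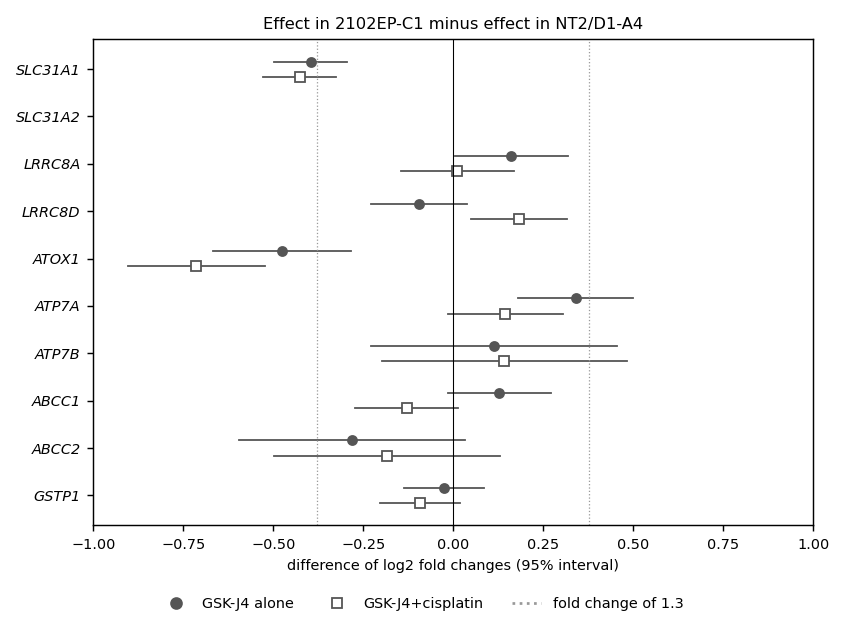
Difference of log2 fold changes between the lines (2102EP-C1 effect minus NT2/D1-A4 effect, horizontal axis, point with 95% interval) for GSK-J4 alone (filled circles) and GSK-J4+cisplatin against control (open squares). SLC31A1 (-0.40 and -0.43) and ATOX1 (-0.48 and -0.71) lie beyond the dotted lines at a fold change of 1.3 on the left, and ATP7A lies highest on the right with GSK-J4 alone (0.34).

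The wider pathway was followed in 60 further genes for other platinum carriers, LRRC8 subunits, copper delivery, metallothioneins, drug pumps, glutathione supply, and glutathione transferases. They were chosen with earlier results of these data known, so their counts beside the shares of all genes describe the list and carry no test. GSK-J4 alone called 12 of the 49 measured genes higher and 1 lower in NT2/D1-A4 (against 20.3% of all genes called in either direction), and 3 of 53 higher and 2 lower in 2102EP-C1 (against 10.9%). Knockdown alone called 5 of 53 higher and 4 lower (against 12.1%). Within glutathione supply and turnover, 5 of 11 genes rose past both limits in NT2/D1-A4 (median log2 fold change 0.36), 2 of 11 in 2102EP-C1 (0.09), and with knockdown 1 rose and 1 fell (0.04). The shares of all genes called in either direction were the same 20.3%, 10.9%, and 12.1%, with medians over all genes of 0.01, -0.00, and -0.00. CHAC1, which degrades glutathione, rose by 2.96 in NT2/D1-A4 (adjusted p = 5.0e-12), 1.34 in 2102EP-C1 (adjusted p = 6.6e-06), and 0.40 with knockdown (adjusted p = 0.0042). SLC7A11, the cystine importer that feeds glutathione synthesis, rose by 1.93 (adjusted p = 1.4e-15) and 1.00 (adjusted p = 2.1e-14) with GSK-J4, and by 0.29 with knockdown (adjusted p = 1.1e-07, under the fold limit). Both responses to GSK-J4 alone were smaller in 2102EP-C1 than in NT2/D1-A4 (differences of -1.62 for CHAC1 and -0.93 for SLC7A11, adjusted p = 5.6e-05 and 6.1e-10). GSR, which regenerates reduced glutathione, fell by 0.47 with knockdown (adjusted p = 9.6e-16) and gave -0.07 and 0.06 with GSK-J4 (adjusted p = 0.075 and 0.16).

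Among the other platinum carriers, the organic cation transporters SLC22A2 and SLC22A3 rose past both limits in NT2/D1-A4 (1.26 and 0.58, adjusted p = 5.4e-05 and 0.0057) and with knockdown (0.69 and 0.78, adjusted p = 8.5e-07 and 1.3e-04), and gave 0.02 and 0.32 in 2102EP-C1 with GSK-J4 (adjusted p = 0.94 and 0.34). Both are low, with 8 to 214 reads per library. STEAP3, a metalloreductase, fell in NT2/D1-A4 (-0.49, adjusted p = 4.3e-05) and with knockdown (-0.45, adjusted p = 7.3e-10), and STEAP2 rose in 2102EP-C1 (0.48, adjusted p = 0.0059). The metallothioneins MT1X and MT1G, which bind metal ions and platinum, fell in 2102EP-C1 with GSK-J4 alone (-0.53 and -0.43, adjusted p = 3.7e-08 and 3.8e-07). With GSK-J4+cisplatin the differences from control were -0.98 and -0.81 (adjusted p = 1.2e-13 and 1.1e-12). MT1A rose with knockdown (0.44, adjusted p = 0.026), the only called gene of the 9 measured on the metallothionein list (against 12.1% of all genes called). Of those 9, 6 were lower past the test (list median -0.17), against 52.8% of all genes past it in either direction. With knockdown the drug pump ABCC3 fell (-0.55, adjusted p = 0.022), and the channel subunit LRRC8E fell (-0.48, adjusted p = 2.2e-05). Metallothionein genes are near-identical copies, so reads may be split among them, and ABCC3 and MT1A rest on 7 to 71 reads per library.

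Within each experiment, the genes whose levels followed LRRC8D most closely over the 12 libraries were RCN1, TARS1, and EXOC6 (mean Pearson r over the 3 experiments of 0.98, 0.97, and 0.96, among 11465 genes). For SLC31A1 they were TTI2, CYRIB, and CETN2 (0.80, 0.79, and 0.79) and for ATOX1 they were CARS2, CPT2, and GAMT (0.75, 0.73, and 0.71). The libraries of an experiment share its treatments and its normalization, so these values describe likeness and carry no test. For SLC31A1, which was flat in 2102EP-C1, the value in that experiment was only 0.55 to 0.58.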

How the data were processed

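Messenger RNA of 36 libraries (12 arms of 3 biological replicates) was sequenced by the authors with a stranded TruSeq kit. Per the paper and the submitters' processing notes, reads were trimmed with Trimmomatic, aligned to GRCh38.p14 with STAR, counted with featureCounts, filtered at 0.5 CPM in at least 2 samples, and normalized by TMM. Versions and the strand setting are not given in the sources used here. The deposited values are log2 CPM per gene, computed by the authors with a prior count of 3. Whole reads were recovered from them.

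Each table was fitted on its own with limma-trend (limma 3.58.1, R 4.3.3) on 4 group means with 6 two-sided contrasts, and line differences were fitted on the 15663 genes of both GSK-J4 tables. A call required an adjusted p under 0.05 (Benjamini-Hochberg over all genes) and a fold change over 1.3. Intervals are 95%. In simulated data, 100 genes were changed by 1.5-fold and 100 by 2-fold. Of the 1.5-fold changes, 91%, 93%, and 100% were recovered in the NT2/D1-A4 (16431 genes), 2102EP-C1 (17035), and knockdown (16459) designs. False calls numbered 2, 6, and 2. The simulation gave every gene the same relative spread beyond counting noise and had no outlying library, so recovery and false calls in the real data may differ. Recovery of changes under 1.5-fold was not tested. Levels per kilobase used GENCODE lengths on GRCh38. Replicates varied by 1.68 to 26.79 times counting noise, so no pair was within sampling noise.

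The members, the 60-gene pathway list, and the marker lists were chosen with earlier results of these data known. All members are named, and of the pathway list the up to 3 largest called rises and falls with pretreatment alone in each experiment. The likeness of other genes is the mean Pearson r over the 3 tables. Alternatives were a stricter filter, only the groups compared, a replicate block, limma-voom on recovered reads, library-size scaling, a prior count of 0.5, no fold limit, and leaving out each library.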

Additional observations from a re-analysis of the deposited data

Results flagged for a closer look

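The following results were singled out because the effect of one agent differed, by the test of the difference itself, between cells with and without pretreatment or between the lines. All are fits with limma, and p-values are adjusted over all genes.

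For the effect of cisplatin with pretreatment minus that without it, ABCC1 gave -0.38 in 2102EP-C1 with GSK-J4 (adjusted p = 6.0e-04) and -0.27 in the knockdown experiment (adjusted p = 5.5e-07). In the knockdown experiment SLC31A1 gave 0.15 (adjusted p = 5.6e-05) and GSTP1 gave 0.16 (adjusted p = 6.9e-04). None of these passed the fold limit of 1.3.

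For the effect in 2102EP-C1 minus that in NT2/D1-A4, GSK-J4 alone gave -0.40 for SLC31A1 (adjusted p = 5.9e-07), 0.34 for ATP7A (adjusted p = 0.0016), and -0.48 for ATOX1 (adjusted p = 3.0e-04). GSK-J4+cisplatin against control gave -0.43 for SLC31A1 (adjusted p = 9.6e-08), -0.71 for ATOX1 (adjusted p = 6.9e-07), and 0.18 for LRRC8D (adjusted p = 0.028). These comparisons share their control libraries, and the line and the experiment cannot be told apart.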

How the results depend on the processing

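Over 65 changes of single members past the test, 1232 alternatives were computed. In 1155 the change stayed past the test, in 77 it did not, and in 0 did it change direction, and 50 changes passed in every alternative run. These alternatives include leaving out libraries of arms outside a comparison. Such an alternative cannot change the fold change, only its error and adjusted p, so the counts overstate how often a change was put to the test. The number of members called kept its value under limma-voom, the prior count of 0.5, only the groups compared, and the stricter filter. With the replicate block the number called was also the same in all 21 comparisons, and among single members the block took ATOX1 with cisplatin alone in NT2/D1-A4 over the limit (adjusted p = 0.0561). Of 18 same-numbered pairs per experiment, 0, 5, and 3 correlated over 0.1 in the 2102EP-C1 GSK-J4, knockdown, and NT2/D1-A4 experiments (highest 0.1, 0.313, and 0.277), so some but not every pair deviated together, and the number was not taken as a pairing. Scaling to library size only called 2 members for GSK-J4 alone and 1 for GSK-J4 within cisplatin-treated cells in NT2/D1-A4, 1 for the interaction in 2102EP-C1, and 0 for knockdown alone. Without a limit on the fold change, the members called were 1 for cisplatin alone, 4 for GSK-J4 alone, 5 for the combination, and 4 for GSK-J4 within cisplatin-treated cells in NT2/D1-A4. They were 1, 4, 4, and 4 for the same comparisons in 2102EP-C1, with 3 for cisplatin within pretreated cells and 1 for the interaction, and 4, 4, 5, and 7 in the knockdown experiment, with 5 and 3. Leaving out 1 library gave 0 to 2 for GSK-J4 alone and 0 to 1 for GSK-J4 within cisplatin-treated cells in NT2/D1-A4, 0 to 1 for the interaction in 2102EP-C1, 0 to 1 for knockdown alone and for cisplatin within knockdown cells, and 1 to 3 for the line difference with GSK-J4 alone (1 without NT2/D1-A4 control replicate 2, 3 without NT2/D1-A4 GSK-J4 replicate 3).

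Over all genes, the filter at a log2 value over 1 in every library, which tests fewer genes, took the calls for pretreatment alone from 3332 to 1917 in NT2/D1-A4, from 1858 to 957 in 2102EP-C1, and from 1989 to 907 with knockdown. For cisplatin alone they went from 402 to 229, from 182 to 118, and from 493 to 152, for the combination from 4180 to 2398, from 3849 to 2293, and from 2634 to 1339, and for pretreatment within cisplatin-treated cells from 3396 to 1894, from 3295 to 1962, and from 2497 to 1307. For cisplatin within pretreated cells they went from 379 to 196 in 2102EP-C1 and from 579 to 186 with knockdown, and for the knockdown interaction from 620 to 403. Only the groups compared gave 18 in place of 62 for cisplatin within GSK-J4-treated NT2/D1-A4 cells, and the cause was not tested. Leaving out 1 library took the NT2/D1-A4 interaction from 7 to 1 to 11 (11 without GSK-J4+cisplatin replicate 1, 1 to 6 without any other library) and the 2102EP-C1 interaction from 146 to 59 (without GSK-J4 replicate 1) to 447 (without GSK-J4 replicate 3). For cisplatin within pretreated NT2/D1-A4 cells, 62 became 22 and 39 without GSK-J4 replicates 1 and 3 and 107, 20, and 98 without GSK-J4+cisplatin replicates 1, 2, and 3. In 2102EP-C1, 379 became 242 and 725 without GSK-J4 replicates 2 and 3 and 164 without GSK-J4+cisplatin replicate 1, and for cisplatin alone 182 became 118 without control replicate 1 and 117 without cisplatin replicate 2. The line difference with cisplatin alone went from 20 to 8 to 12 without any of 9 libraries. SLC31A2, ABCC2, and ATP7B rest on few reads.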
